A study of Macaca mulatta with 102 samples.

Results

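The genes described are those for cytosolic ribosomal proteins in blood T cells of rhesus macaques. They were taken as the genes whose symbol on the array starts with RPL or RPS and a digit, together with RPLP1 and RPLP2, leaving out the RPS6K kinases, names with a pseudogene suffix and RPS19BP1, which encodes a binding protein. This gave 40 genes out of 14132 with a probe set of their own. Of these, 27 encode proteins or paralogs of the large subunit and 13 of the small subunit. Each gene is represented by its probe set with the highest mean, and 39 of the 40 passed the filter on dim probe sets, out of 10694 genes tested. The exception was RPL3L, a paralog known from muscle, whose mean log2 signal was 4.25. Only a part of the ribosome's proteins had a probe set naming a single gene, and 32 further probe sets that name a ribosomal protein gene together with another gene were not used.

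Messenger RNA was measured on 102 Affymetrix arrays of CD3 T cells sorted from peripheral blood after haematopoietic cell transplantation (HCT) and from untransplanted animals. HCT replaces the blood-forming system, and T cells of an allogeneic graft can attack the host in graft-versus-host disease. The 46 arrays labelled Healthy.Control came from 45 animals, and the 56 others from transplanted animals in 15 groups. No label gives an age or a genotype, and all transplanted groups share the transplantation itself.

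The group names carry the labels' abbreviations. NoRx.F (n = 4, days 6 to 12 after HCT) is read as allogeneic recipients given no prophylaxis. Siro.F (n = 4, days 12 to 24) is read as recipients of sirolimus, an inhibitor of the mTOR kinase. Tac.Mtx, read as tacrolimus with methotrexate, was sampled on day 14 (Tac.Mtx.D14, n = 3) and between days 26 and 67 (Tac.Mtx.F, n = 3). Bela.Siro was sampled on day 14 (n = 3), day 30 (n = 2) and between days 26 and 105 (Bela.Siro.F, n = 7). KY1005 is an antibody to the costimulatory ligand OX40L. Animals given only this antibody form KY1005.D14 (n = 2, between days 14 and 16) and KY1005.F (n = 3, between days 16 and 23). It was also given with Siro (KY1005.Siro.D14 and KY1005.Siro.D28, n = 5 each, and KY1005.Siro.F, n = 4, days 97 to 106). Autologous recipients, given their own cells, were sampled on day 14 (Auto.D14, n = 3), days 30 to 36 (Auto.D36, n = 4) and day 100 (Auto.D100, n = 4). The labels do not say what F stands for. Several animals were sampled more than once, so the groups are not all independent, and the label batch divides the arrays into 6 sets.

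Ribosomal proteins assemble with ribosomal RNA into the small subunit, which decodes the messenger, and the large subunit, which joins amino acids. Their messengers carry a tract of pyrimidines at the 5′ end through which mTOR controls their translation, so in a T cell a change in mTOR activity can alter the proteins without altering the messengers measured here. Resting T cells hold large amounts of these messengers, and activation calls for new ribosomes. A few genes have a second copy, or paralog (RPL22L1, RPL26L1, RPL36AL, RPL7L1, RPS27L), whose product is a variant of the usual protein.

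Values are log2 signals after robust multi-array averaging (RMA), and array medians ran from 5.13 to 5.35. Every difference is on the log2 scale and comes from one limma fit with group and batch as terms, so it can depart slightly from the difference of the plain means. The threshold was an adjusted p under 0.05 over 31710 probe sets. Genes past it are called higher or lower. In healthy animals the T cell markers CD5 and CD6 averaged 10.8 and 7.56. The other T cell markers listed, the CD3 chains among them, were not analysed here. Of the monocyte and granulocyte markers, S100A8 averaged 6.90 in healthy animals and 11.6 in NoRx.F. The list did not move as one: CD14 (6.48 and 6.24) and CSF1R (5.49 and 5.38) were lower in NoRx.F. MMP9 was at 4.89 and 4.96. The mean of the 12 monocyte and granulocyte markers relative to healthy ran from 0.12 to 2.44 over NoRx.F arrays. Over KY1005.Siro.F arrays it ran from -0.69 to 5.58. It ran from -0.999 to 1.34 over healthy animals. The mean of CD5 and CD6 stood at -0.38 relative to healthy in NoRx.F (-0.63 to -0.06), -0.53 in Siro.F (-0.61 to -0.45) and 0.31 in Auto.D36 (0.20 to 0.48). In NoRx.F both were lower (10.4 and 7.27). In Auto.D36 they went opposite ways, with CD5 lower (10.5) and CD6 higher (8.51) than in healthy animals. The mean of 4 natural killer cell markers was -0.64 in NoRx.F (-1.13 to 0.56) and -0.40 in Siro.F (-1.05 to 0.52), with healthy animals from -1.07 to 0.98. In NoRx.F KLRF1, 1 of these, averaged 6.21 against 9.29 in healthy animals. FCGR3 went the other way (7.10 against 5.94). NCR3 (9.39 against 9.83) and NCAM1 (9.91 against 10.12) were lower by less. The part of the T cell and natural killer cell markers in the results was not tested. On 6 arrays, 4 of them healthy and 2 of Auto.D14, the 3′ signal of the actin controls exceeded the 5′ signal by over 2.5 on the log2 scale, a sign of RNA quality. In such bulk samples fewer cells of a type and less of a messenger per cell cannot be told apart.

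The probe sets were bright. In 25 of the 39 genes the mean over all arrays lay in the top 1 percent of all values, at 11.9 or above, where the range left above a signal is narrow. The spread between healthy animals was small in those: the SD was 0.05 for RPS6, the small-subunit protein that mTOR signalling phosphorylates, and 0.06 for RPL26. Among the other genes it reached 0.48 for RPL22 and 0.42 for RPL24, both of the large subunit. Across the 45 healthy animals the signals of the 25 bright genes tended to move together, with a median Pearson r of 0.33 over 300 gene pairs. The median was 0.05 over pairs of 194 other genes of that brightness and 0.03 over all genes. These correlations are between genes measured on the same arrays, which share their scaling.

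**Figure D1:**
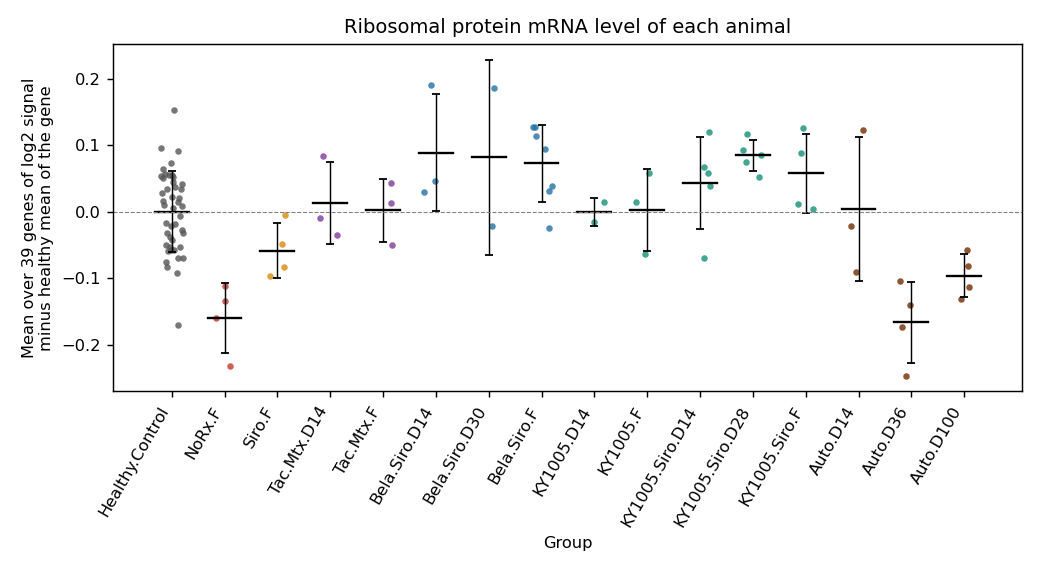
Mean over the 39 genes of the log2 signal minus the healthy mean of each gene, 1 point for each animal and group, with the group mean (bar) and SD (whisker). The 4 NoRx.F animals lay between -0.23 and -0.11 and the 4 Auto.D36 animals between -0.25 and -0.10, within the healthy range (-0.17 to 0.15) or below it.

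The plot of animal means shows the size of the shift. Averaged over the 39 genes, NoRx.F stood at -0.16 ± 0.05 relative to healthy (SD, n = 4), Siro.F at -0.06 ± 0.04 (n = 4) and Auto.D36 at -0.17 ± 0.06 (n = 4). The 45 healthy animals had an SD of 0.06. Each NoRx.F animal had between 29 and 33 of the 39 genes below the healthy mean, against a median of 18 in healthy animals. Bela.Siro.D14, Bela.Siro.F and KY1005.Siro.D28 stood at 0.09, 0.07 and 0.08, on the other side of 0.

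Recipients without prophylaxis had the most ribosomal protein genes called lower than healthy controls among the 15 groups. By the mean over the 39 genes Auto.D36 stood as low (-0.17 against -0.16). In NoRx.F 21 of the 39 genes were lower, against 14% of all probe sets, and 2 were higher, against 13.5%. The median difference was -0.17, with 31 of 39 below 0, and over all probe sets it was 0.01. Genes of both subunits fell: 11 of 26 for the large and 10 of 13 for the small subunit. Among the 25 bright genes 16 were lower and 0 higher by limma, with 18 at an unadjusted p under 0.05. Of all 459 tested probe sets of that brightness, 36.2% were lower and 15.3% higher.

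**Figure D2:**
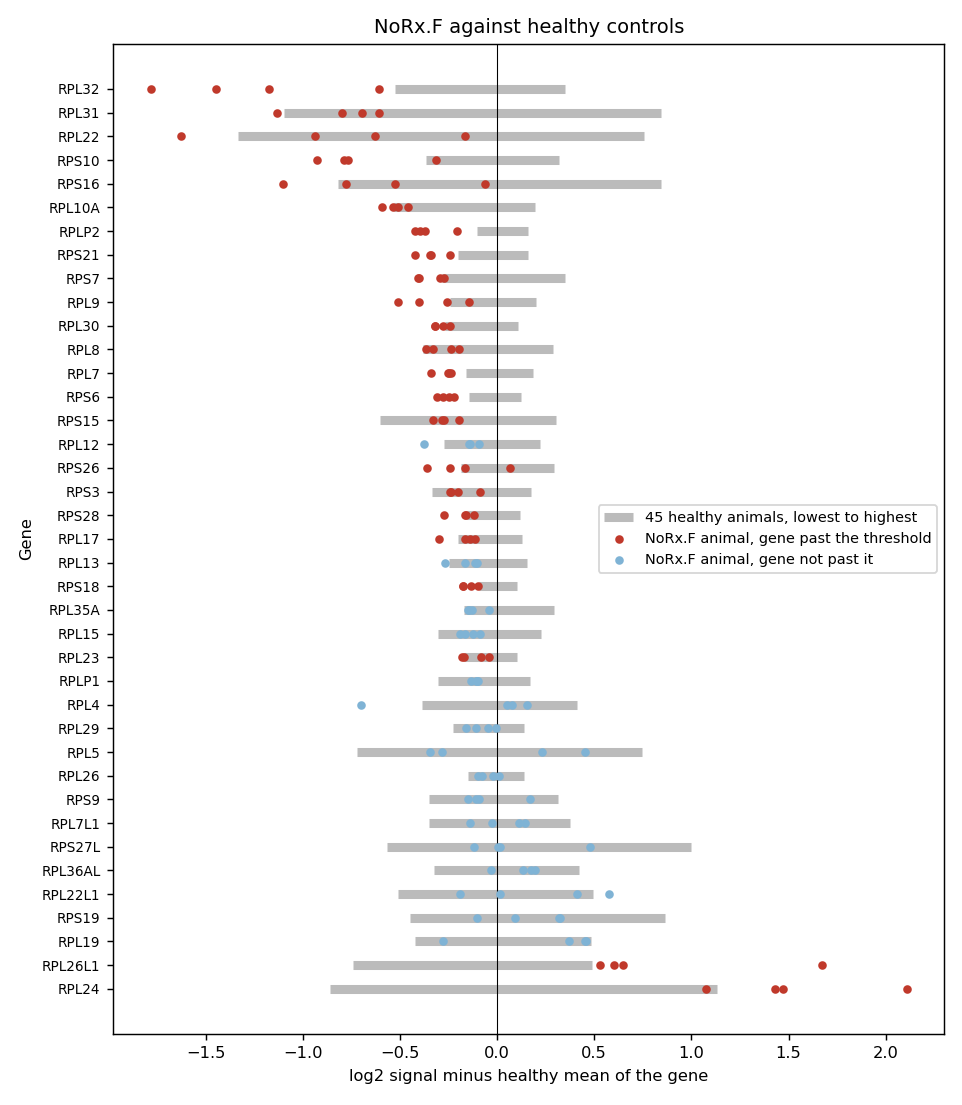
For each gene, the log2 signal of the 4 NoRx.F animals minus the healthy mean (points, red where the gene passed the threshold) and the range of the 45 healthy animals (grey bar). RPL32 at the top lies wholly below its healthy range, and RPL26L1 near the bottom wholly above.

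RPL32, a large-subunit protein, fell most. Its signal was 8.87, 8.26, 8.6 and 9.44 in animals R.50, R.51, R.52 and R.53, and ran from 9.52 to 10.4 with a median of 10.1 in healthy animals. All 4 values lay below every healthy value. The difference was -1.18 (SE 0.13, limma adjusted p = 1.98e-11), or 2.27-fold lower. RPL10A, also of the large subunit, was at 13.26, 13.18, 13.24 and 13.31 in the same order. The healthy median was 13.81, and 1 healthy animal, at 13.24, reached down to the NoRx.F values. The difference was -0.51 (SE 0.09, adjusted p = 4.25e-06).

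RPL31 and RPL22 fell with a wider spread. RPL31, which lies near the exit of the nascent chain, was at 7.36, 7.55, 7.02 and 7.47, below the healthy median of 8.18 in all 4 but outside the healthy range in 1. The difference was -0.80 (SE 0.23, adjusted p = 0.00512). RPL22, a protein with a role in T cell development, was at 10.1, 11.1, 10.8 and 11.6 against a healthy median of 11.8, and 1 of 4 lay below the healthy range. Its difference was -0.75 (SE 0.25, adjusted p = 0.0178), and without R.50 it was -0.52 (adjusted p = 0.161). Within the batches of the group RPL22 was at -0.76 (adjusted p = 0.0756).

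In the small subunit RPS10 and RPS16 moved furthest. RPS10, which sits in the head of the subunit near the messenger, was at 10.7, 10.7, 10.5 and 11.1, and 3 of the 4 lay below the lowest healthy value of 11.1. The difference was -0.67 (SE 0.10, adjusted p = 1.44e-07). RPS16 was at 7.79, 6.75, 7.07 and 7.32 against a healthy median of 7.83, with a difference of -0.63 (SE 0.22, adjusted p = 0.0211). For RPS16 the 4 values were below the healthy median but 3 lay inside the healthy range. Its call was lost without R.51 (adjusted p = 0.13), R.52 (0.0628) or R.53 (0.0629).

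Several bright genes lay wholly below the healthy range at small differences. RPS6 was at 14.00, 13.98, 13.95 and 13.92 and healthy animals were between 14.1 and 14.3, so the groups did not overlap. The difference was -0.26 (SE 0.04, adjusted p = 2.16e-06). RPLP2, 1 of the pair of acidic proteins of the stalk that recruits elongation factors, was at 13.76, 13.54, 13.60 and 13.57, below every healthy value (lowest 13.9). It fell by 0.36 on the log2 scale (SE 0.05, adjusted p = 3.75e-08), whereas its partner RPLP1 was at -0.12 (SE 0.07, adjusted p = 0.178). RPL7, RPS18 and RPS21 also lay wholly below the healthy range, with differences of -0.27, -0.14 and -0.34. How many of all probe sets lay wholly below it was not counted. The remaining genes called lower were RPL9, RPL30, RPL8, RPL17, RPL23, RPS7, RPS15, RPS26, RPS3 and RPS28, with differences from -0.34 (RPS7) to -0.12 (RPL23). After a further quantile normalization 15 genes were lower in place of 21. RPL23, RPS18, RPL17, RPS28, RPS3 and RPS26 were the calls lost, with adjusted p from 0.0652 to 0.334.

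The 2 genes that rose were RPL24 and RPL26L1. RPL24, a large-subunit protein at the interface with the small subunit, was at 12.0, 11.6, 12.7 and 12.0 and healthy animals were between 9.69 and 11.7. The difference was 1.47 (SE 0.34, adjusted p = 0.000449), and 3 of 4 lay above every healthy value. RPL26L1, the paralog of RPL26, was at 10.3, 9.21, 9.33 and 9.28, above every healthy value (highest 9.17). Its difference was 0.88 (SE 0.19, adjusted p = 0.000204), while RPL26 itself stood at -0.05. The other paralogs were above 0 without passing the threshold: RPL22L1 at 0.18, RPL36AL at 0.11, RPS27L at 0.03 and RPL7L1 at 0.01.

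Several of these genes have a further probe set. Of 9 further probe sets of genes called in NoRx.F, 7 went the same way and 4 were called the same way. They included RPL22 (-0.97), RPL23 (-0.27), RPL30 (-0.68) and RPS6 (-0.42). The second probe set of RPS15 went the opposite way, at 1.27 (SE 0.12, adjusted p = 6.97e-15) against -0.26, so no direction can be given for RPS15, which is nonetheless counted among the 21 by its brightest probe set. RPL9's dimmer probe set was at 0.17 (adjusted p = 0.729). RPL32's second probe set was at -0.40 (adjusted p = 0.36). Among genes not called by their brightest probe set, another was called lower for RPL15 (-1.44), RPL26 (-0.99), RPL13 (-0.47) and RPL35A (-0.22). RPL24, RPL26L1, RPL31, RPL10A and RPS10 have 1 probe set each. RPS16 has 5, of which 1 passed the filter on dim probe sets, with a mean of 7.91 over all arrays.

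NoRx.F and healthy arrays share batches 1 and 2. Within those batches 11 genes were lower and 2 higher, and without each NoRx.F array in turn 18 to 21 of the 39 were called. The calls lost within the batches were RPL8, RPL17, RPL22, RPL23, RPS3, RPS15, RPS16, RPS18, RPS26 and RPS28, at limma adjusted p from 0.056 to 0.296. The share of all probe sets called was counted for the main fit alone. With the monocyte and granulocyte markers as a covariate 21 were lower and 2 higher. These 21 were not the same genes, since RPL22 was not called with that covariate (-0.65, limma adjusted p = 0.0551). R.53 also has a healthy control array in the same batch. Its NoRx.F array was below that array in 32 of the 39 genes, with differences of -0.60 for RPL32, -0.59 for RPL10A, -0.35 for RPS6 and 1.36 for RPL24. The share of all probe sets below an animal's own healthy array was not counted, for R.53 or for any other animal.

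Siro.F was compared with healthy controls and with NoRx.F, which asks how recipients of the mTOR inhibitor stood. Against healthy controls 3 genes were lower (4.66% of probe sets) and 0 higher (4.24%) by limma, with 9 of the 39 at an unadjusted p under 0.05. RPL32 was at 9.26, 9.18, 9.56 and 9.60 in R.13, R.17, R.16 and R.18, with a difference of -0.62 (SE 0.13, adjusted p = 0.000456). RPS10 was at 10.85, 10.91, 11.19 and 10.92, with a difference of -0.48 (SE 0.10, adjusted p = 0.000363). RPLP2 was at 13.86, 13.82, 13.70 and 13.69, with a difference of -0.21 (SE 0.05, adjusted p = 0.00243). All 4 values lay below every healthy value for RPLP2, 3 did for RPS10 and 2 for RPL32. The RPLP2 call was lost without R.18 (adjusted p = 0.0616) and within batches (adjusted p = 0.156). Without R.17 the count was 5 (2 higher). Of 3 Siro.F animals with a healthy array of their own, R.16 had 34 and R.18 had 30 of 39 genes below it and R.13 had 14. R.18 and R.13 were in the batch of that array and R.16 was not. The share of all probe sets below the own healthy array was not counted.

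Against NoRx.F 5 genes were higher in Siro.F (3.08% of probe sets) and 0 lower (3.38%) by limma, with 18 of 39 at an unadjusted p under 0.05 and a median difference of 0.15. RPL10A was at 13.89, 13.62, 13.60 and 13.59 in the order above, over each NoRx.F value, and higher by 0.42 (SE 0.11, adjusted p = 0.0106). RPS6 was at 14.23, 14.14, 14.17 and 14.15 and higher by 0.21 (SE 0.05, adjusted p = 0.00907), and RPL30 by 0.19 (adjusted p = 0.0172). For RPL10A, RPL30, RPS6 and RPS7 the groups did not overlap. The share of all probe sets without overlap was not counted. RPL32 was higher by 0.56 (adjusted p = 0.0207) with 2 of 4 animals above every NoRx.F value, and RPS7 by 0.28 (adjusted p = 0.0493). Leaving out single arrays ended the RPS7 call in 7 of 8 fits (adjusted p up to 0.196). It ended the RPL32 call without R.51, R.52 or R.16 (adjusted p from 0.0764 to 0.152), the RPL30 call without R.52, R.13 or R.17 (0.0516 to 0.0597) and the RPL10A call without R.13 (0.0514). With both of its probe sets averaged RPL30 was at -0.048 (adjusted p = 0.898). Within batches 1 gene was called, and it was lower, with RPL10A at 0.42 (adjusted p = 0.076) and RPS6 at 0.21 (adjusted p = 0.23). The count was 2 without R.52 of NoRx.F or R.13 of Siro.F, and 3 without R.17 or R.16. RPL24 was at -1.25 relative to NoRx.F (SE 0.41, adjusted p = 0.0515), with all 4 Siro.F values below every NoRx.F value.

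KY1005 with Siro at day 14 was also compared with NoRx.F. In that comparison 13 of 39 genes were higher (7.38% of probe sets) and 0 lower (8.20%) by limma, with 17 at an unadjusted p under 0.05 and a median difference of 0.16. Whether this differs from the Siro.F comparison was not tested. Small-subunit genes made up 6 of the 13, RPS15 included, whose probe sets disagree. RPS16 was at 8.23, 7.44, 8.29, 8.66 and 8.64 in R.217 to R.221, higher by 1.10 (SE 0.30, adjusted p = 0.00728), and 4 of 5 values lay above every NoRx.F value. RPL32 was at 9.53, 10.21, 9.61, 9.82 and 9.37 and higher by 0.82 (SE 0.19, adjusted p = 0.00122). RPL31 was at 8.32, 8.01, 8.25, 8.68 and 8.32, above each NoRx.F value, by 0.91 (SE 0.32, adjusted p = 0.0441), a call lost without any of 7 of the 9 arrays in turn. RPL10A, RPL30, RPL7, RPL9, RPLP2, RPS18, RPS21, RPS7 and RPS6 rose by 0.16 to 0.62, and RPS6 was the only one of these whose groups overlapped. Here too the share of all probe sets without overlap was not counted. Leaving out single arrays ended the call of RPS18 in 7 of 9 fits and of RPS7 and RPL9 in 5 of 9 each. The brightest probe set of RPS15 was at 0.45 and its second at -1.26 (adjusted p = 3.54e-08), so it has no direction here either. The second probe set of RPL9 was at -0.36 (adjusted p = 0.607) and the average of both at -0.036 (adjusted p = 0.935). The second probe sets of RPL30 (0.81) and RPS6 (0.43) went the same way as the brightest, and that of RPL32 was at -0.05. The count fell to 7 without R.53 of NoRx.F and 8 without R.219 of KY1005.Siro.D14.

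KY1005 alone, at the F sampling, had 5 genes higher than NoRx.F (4.67% of probe sets) and 0 lower (4.07%) by limma, with 17 at an unadjusted p under 0.05. The 5 were RPL22, RPL32, RPL10A, RPS6 and RPL30. RPL22 was at 12.10, 12.39 and 12.38 in R.211, R.206 and R.212, above each NoRx.F value and higher by 1.27 (SE 0.39, adjusted p = 0.0271). The RPL22 call was lost without R.206 (adjusted p = 0.0719), R.212 (0.0837) or R.50 of NoRx.F (0.0908). RPL10A was at 13.68, 13.92 and 13.94, higher by 0.64 (SE 0.14, adjusted p = 0.00176), and RPS6 by 0.33 (SE 0.07, adjusted p = 0.00106). The RPL10A and RPS6 calls held without each array in turn. RPL32 (0.65, adjusted p = 0.0334) was lost without R.206, R.212, R.51 or R.52 (adjusted p from 0.0717 to 0.123), and the count was 3 without R.206 or R.212. The KY1005 groups and NoRx.F share no batch, so a difference between batches cannot be told apart from these except through the healthy arrays in each. The comparisons with NoRx.F all share its 4 arrays.

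Against healthy controls the KY1005 groups had median differences between -0.02 and 0.05. KY1005.D14 had 0 genes higher (0.123% of probe sets) and 0 lower (0.0788%) by limma, with 3 at an unadjusted p under 0.05. KY1005.F had 1 higher (1.72%) and 1 lower (1.56%), RPL24 at 1.51 (adjusted p = 0.0217) and RPL32 at -0.53 (adjusted p = 0.0416). Neither KY1005.F call held within the batch, at adjusted p = 0.108 and 0.111, nor without R.211 or R.206, and without R.212 RPL24 alone was called. KY1005.Siro.D14 had 1 higher (1.57%), RPL24 at 1.35, and 1 lower (2.57%), RPS10 at -0.55 (SE 0.10, adjusted p = 0.000291). RPS10 was at 10.70, 11.19, 11.05, 11.15 and 10.72 there, and 3 of 5 lay below the healthy range. RPL24 was not called there without R.217 (adjusted p = 0.0718) or within the batch (0.0682).

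At day 28 KY1005.Siro had 2 higher (6.94%) and 1 lower (5.16%): RPL24 at 1.08 (adjusted p = 0.0246), RPS16 at 0.76 (SE 0.21, adjusted p = 0.0124) and RPS10 at -0.31 (adjusted p = 0.0341). None of these 3 was called without R.221, 1 was without R.217, and within the batch only RPS16 was. KY1005.Siro.F had 1 higher (4.58%), RPL24 at 2.21, and 0 lower (2.26%) by limma, with 6 at an unadjusted p under 0.05. Between days 28 and 14 of the same 5 animals 0 were higher (0.00% of probe sets) and 0 lower (0.00946%) by limma, with 1 at an unadjusted p under 0.05. The median difference there was 0.03, and with the animal as a fixed block 0 of 39 reached an unadjusted p under 0.05.

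The calcineurin inhibitor groups and the Bela.Siro groups had few calls. Tac.Mtx.D14 had 0 higher (0.763%) and 0 lower (0.117%) by limma, with 4 at an unadjusted p under 0.05. Tac.Mtx.F had 2 higher (6.90%), RPL24 at 1.36 and RPL19 at 0.59 (adjusted p = 0.0128), and 0 lower (7.36%), with 8 at an unadjusted p under 0.05. RPL19 was at 10.19, 10.57 and 10.69 in R.21, R.20 and R.19, and its call was lost without R.20 (adjusted p = 0.0935) or R.19 (0.115). RPL24 was at 11.84, 13.02 and 11.18, and without R.20 at 0.86 (adjusted p = 0.243).

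Bela.Siro.D14 had 1 higher (1.64%) and 0 lower (1.04%), with 6 at an unadjusted p under 0.05. The gene was RPL31, at 8.42, 9.39 and 8.82 in R.38, R.42 and R.49, higher by 0.86 (SE 0.25, adjusted p = 0.0394). It was not called without R.42 (adjusted p = 0.383) or R.49 (0.086), nor within the batch (0.0928). Bela.Siro.D30 had 0 higher (0.782%) and 0 lower (0.36%) by limma, with 6 at an unadjusted p under 0.05. Bela.Siro.F had 2 higher (5.23%), RPL24 at 0.95 and RPS16 at 0.69 (SE 0.17, adjusted p = 0.0043), and 2 lower (4.77%), RPS10 at -0.46 (SE 0.08, adjusted p = 2.53e-05) and RPL32 at -0.33 (adjusted p = 0.036). RPS16 ran from 7.64 to 9.06 over the 7 animals with 6 above the healthy median, and with the monocyte and granulocyte markers, whose mean ran from 0.62 to 3.32 there, as a covariate it was at 0.48 (adjusted p = 0.133). RPS10 alone was called with that covariate. RPS10 ran from 10.56 to 11.20 with a median of 11.04, and all 7 were below the healthy median. Without R.67 2 of the 4 genes were called.

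Autologous recipients had the most lower genes at days 30 to 36 among their 3 samplings. In Auto.D36 8 genes were lower (4.13% of probe sets) and 0 higher (5.13%) by limma, with 23 of 39 at an unadjusted p under 0.05, 35 of 39 below 0 and a median of -0.14. All 25 bright genes were below 0, as were 264 of the 459 probe sets of that brightness. RPS21, of the small subunit, was at 14.07, 13.71, 13.80 and 13.73 in R.62, R.200, R.201 and R.202, and 3 of 4 lay below the healthy range (difference -0.30, SE 0.06, adjusted p = 0.00091). RPLP2 was at 13.90, 13.58, 13.65 and 13.74, with a difference of -0.24 (SE 0.05, adjusted p = 0.00094). RPL31 was at 7.63, 7.00, 7.29 and 7.17, with -0.91 (SE 0.23, adjusted p = 0.00581), all 4 below the healthy median. In both RPS21 and RPLP2, R.62 alone was inside the healthy range.

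RPL10A was lower in Auto.D36 by -0.34 (adjusted p = 0.00984) and RPL22L1 by -0.51 (adjusted p = 0.0171). RPL22L1 was the only paralog called lower in the comparisons with healthy controls. Both were lost without R.200 (adjusted p = 0.142 and 0.165). RPS9 was lost without any of the 4 arrays, RPL12 without R.200, R.201 or R.202 and RPL30 without R.200 (0.0917), and the count was 3 without R.200 and 5 without R.202. Within batches 4 genes were called, 3 of them lower, with RPL10A at adjusted p = 0.0508. R.200, R.201 and R.202 each had 33 of 39 genes lower on day 36 than in their own healthy sample of the same batch, and R.62, sampled on day 30, had 19. For these counts too the share of all probe sets is not known. The mean of the monocyte and granulocyte markers ran from -0.41 to 3.11 in this group, and with it as a covariate 10 genes were lower and 0 higher.

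Auto.D14 had 5 lower (11% of probe sets) and 3 higher (8.41%), with a median of -0.10 and a plain 39-gene mean of 0.004 relative to healthy. The lower genes were RPL12, RPL30, RPL7, RPL8 and RPLP1, at -0.17 to -0.37 (adjusted p from 0.0122 to 0.0379), and the higher ones RPL24 (1.48), RPL19 (0.59) and RPL36AL (0.41). The log2 actin ratio was 3.30 and 3.38 on 2 of the 3 arrays. Without the 6 arrays of high ratio, which leaves 1 array of the group, 0 were called, and with the ratio as a covariate 3 were. Without R.201 or R.202 the count was 0 as well.

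Auto.D100 had 3 lower (1.26%) and 0 higher (1.22%) by limma, with 15 at an unadjusted p under 0.05 and 35 of 39 below 0. The 3 were RPS21, RPL12 and RPL7, at -0.29, -0.32 and -0.23. RPS21 was at 13.93, 13.84, 13.86 and 13.82 in R.60, R.200, R.202 and R.201, below every healthy value. Without R.200 or within batches 0 were called (RPS21 adjusted p = 0.0756 and 0.0553). Compared with their own healthy samples, R.200, R.201 and R.202 had 30, 27 and 32 of 39 genes lower on day 100, in another batch, and R.60, in the same batch, had 11. Again the share of all probe sets was not counted.

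**Figure D3:**
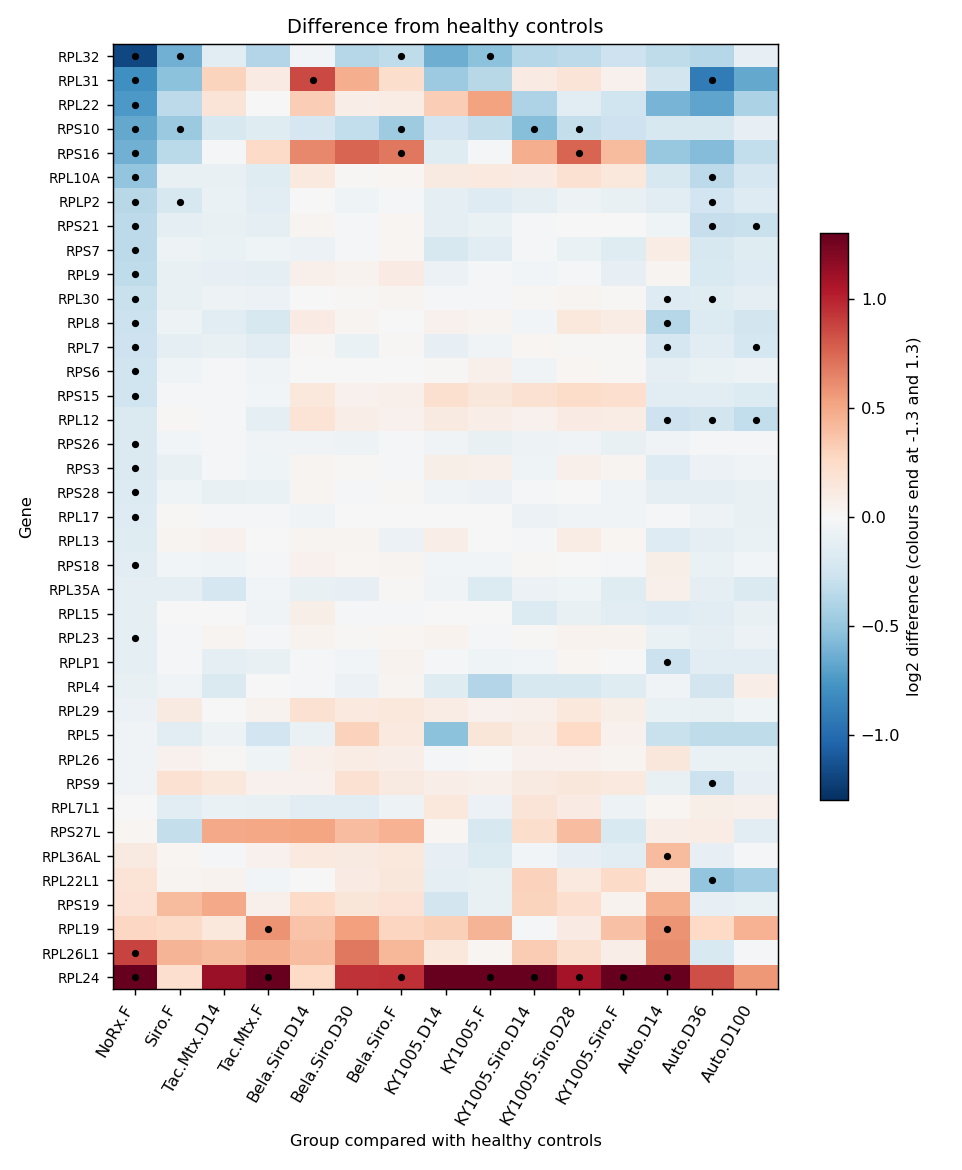
Log2 difference from healthy controls for the 39 genes (rows, ordered by the NoRx.F difference) in the 15 groups (columns), with a dot where the adjusted p was under 0.05. RPL24 at the bottom is above 0 in every column, and RPL32, RPS10 and RPS26 are below 0 in every column.

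Across the 15 groups, as the map of differences shows, 10 of the 39 genes passed the threshold in no comparison with healthy controls: RPL4, RPL5, RPL13, RPL15, RPL26, RPL29, RPL35A, RPL7L1, RPS19 and RPS27L. A further 16 did so in 1. These counts use the brightest probe set of each gene. Another probe set was called lower in NoRx.F for RPL13, RPL15, RPL26 and RPL35A. All 15 comparisons share the healthy arrays, so a common sign in all of them is a description of those arrays as much as of the groups.

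**Figure D4:**
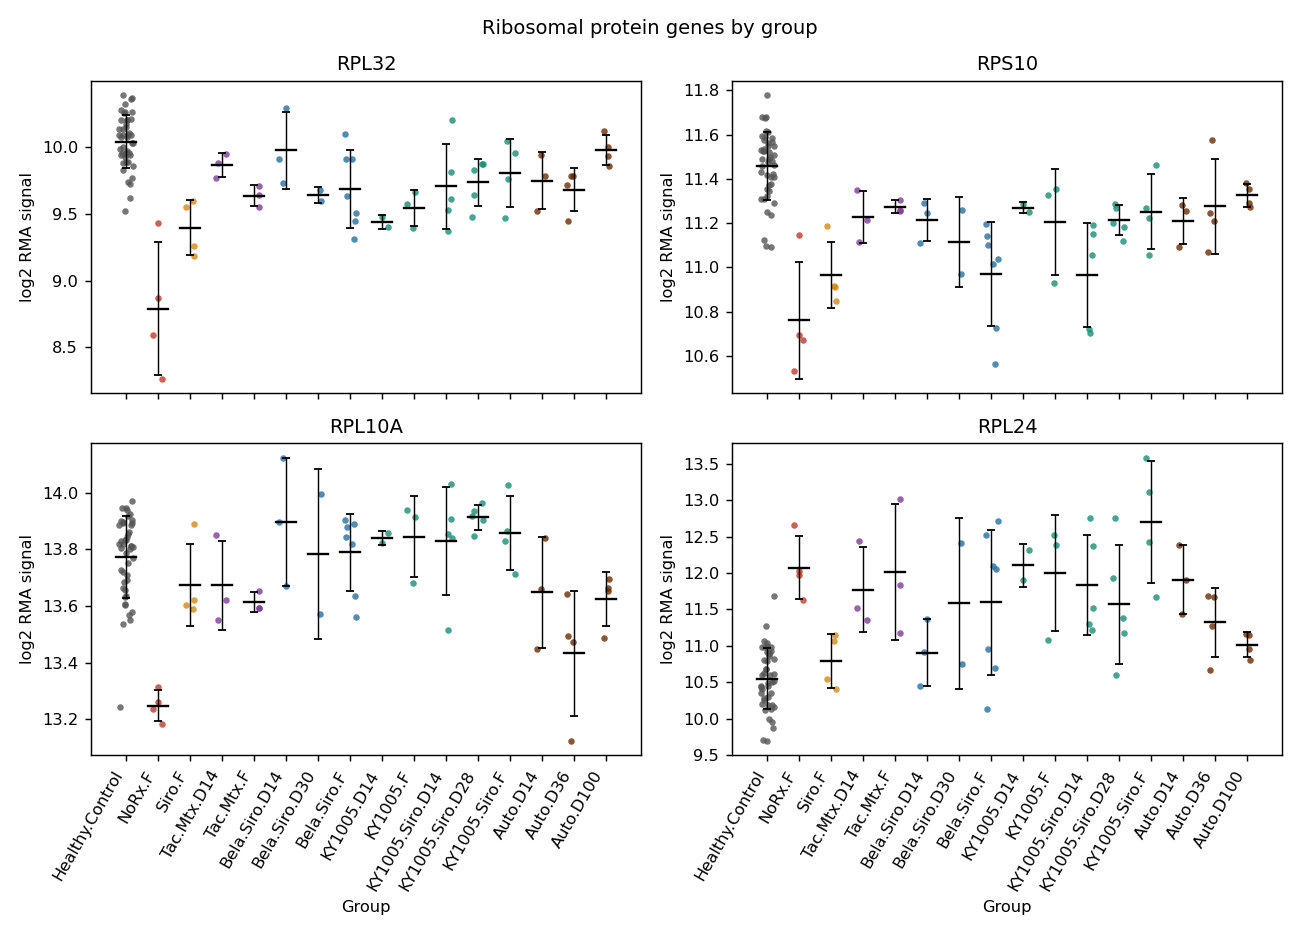
Log2 RMA signal of RPL32, RPS10, RPL10A and RPL24 in each animal by group, with the group mean (bar) and SD (whisker). RPL10A is low in NoRx.F and in Auto.D36, and RPL24 is highest on average in KY1005.Siro.F (mean 12.7).

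RPL24 was the gene called most often, higher in 8 of the 15 groups and above 0 in all 15. Its group means ran from 10.6 ± 0.42 (SD, n = 45) in healthy animals, 10.8 ± 0.37 in Siro.F and 10.9 ± 0.46 in Bela.Siro.D14 to 12.7 ± 0.83 in KY1005.Siro.F. The last group's animals were at 11.67, 13.58, 12.43 and 13.11, and 3 of 4 lay above the highest healthy value of 11.7. The difference was 2.21 (SE 0.36, adjusted p = 1.29e-05). In this group 10 of 12 monocyte and granulocyte markers and 2 of 6 erythroid and platelet markers were higher, against 4.58% of all probe sets. The mean of the latter ran from 0.92 to 2.74 over its 4 arrays, above every healthy animal (highest 0.82). RPL24 was at 2.13 (adjusted p = 0.002) with the former as a covariate and at 2.20 (adjusted p = 0.000129) with the latter. Every pair of neighbouring groups in the order of means overlapped in its animals, and within Bela.Siro.F the signal ran from 10.1 to 12.7. RPL24 rests on 1 probe set. Its call held without each array in turn in NoRx.F and KY1005.Siro.F. In every other group where it was called, leaving out some single array ended the call.

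RPS10 was lower in 5 groups and below 0 in all 15, and RPL32 was lower in 4 and below 0 in all 15. RPS10 means ran from 10.76 ± 0.27 (SD) in NoRx.F, 10.96 in KY1005.Siro.D14 and 10.97 in Siro.F and Bela.Siro.F to 11.46 ± 0.15 in healthy animals. RPL32 was lowest in NoRx.F (8.79 ± 0.50), then Siro.F (9.40 ± 0.21) and KY1005.D14 (9.44 ± 0.05). With RPL32's probe sets averaged it was not called in Siro.F, KY1005.F or any comparison with NoRx.F, with adjusted p from 0.0751 to 0.573.

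Group means of RPL22L1 were most like those of RPL26L1 (r = 0.75 over 16 groups), RPL26 (0.72) and RPS9 (0.69). Those of RPS27L were most like RPL31 (0.56), RPS16 (0.54) and RPL35A (0.44). RPL22L1 ran from 12.05 ± 0.42 in Auto.D36 to 12.8 ± 0.22 in KY1005.Siro.D14, and RPL22 from 10.9 ± 0.61 in NoRx.F to 12.3 ± 0.17 in KY1005.F. RPS27L, which differs from RPS27 at few residues and is known as a p53 target, ran from 5.59 ± 0.40 in Siro.F to 6.40 ± 0.15 in KY1005.Siro.D28.

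**Figure D5:**
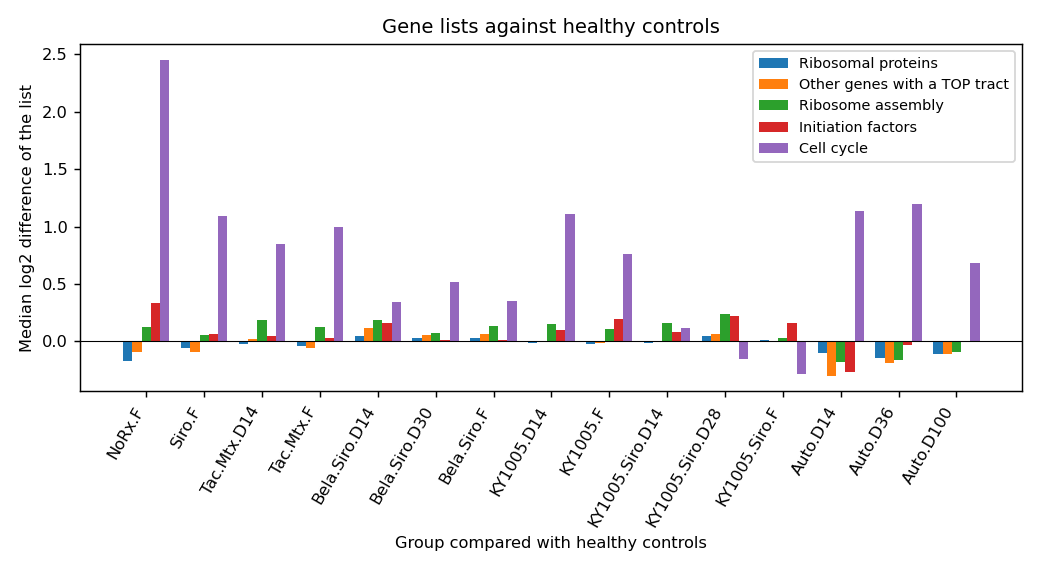
Median log2 difference from healthy controls of 5 gene lists (bars) in the 15 groups. The cell cycle list stands at 2.45 in NoRx.F while the ribosomal protein genes stand at -0.17.

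Other genes of translation were called in both directions in NoRx.F, where 13.5% of all probe sets were higher and 14% lower. Of 15 other genes with a terminal oligopyrimidine tract, 4 were lower and 1 higher. EIF4A2, an RNA helicase of initiation, was at -0.73 (SE 0.07, adjusted p = 9.80e-15), NACA, a chaperone of nascent chains, at -1.06, EIF3E at -0.33 and VIM, the intermediate filament vimentin, at 1.04. Of 36 ribosome assembly genes 9 were higher and 4 lower with a median of 0.13. BYSL (0.98), NHP2 (0.91) and TSR1 (0.90), which act in making ribosomes, rose, and SBDS (-0.83), which frees the large subunit for translation, fell. Of 19 initiation factors 5 were higher and 1 lower, among them EIF2S1 (0.86), EIF2S2 (0.76) and EIF3I (0.73), with a median of 0.33. The difference between these lists and the ribosomal proteins was not tested.

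Of 9 genes for RNA polymerase I and its factors, 2 were higher (13.5% of all probe sets) and 3 lower (14%) in NoRx.F. TAF1D (-0.86), RRN3 (-0.67) and TAF1A (-0.57) fell and POLR1A (0.43) rose. Of 28 mTOR pathway genes 4 were higher, near the share of all probe sets, and 7 lower. SESN1, of the sestrins that restrain mTOR, was at -2.32, MYC, a driver of ribosome synthesis, at -1.41, RICTOR at -0.91 and TBC1D7 at 1.15. All 19 cell cycle genes were higher, with a median of 2.45 and CCNB2 at 4.69, and 6 of 9 genes that mark naive or central memory T cells were lower, with KLF7 at -1.98 and TCF7 at -1.50. The part of the mix of T cell states in the ribosomal protein values was not tested.

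In Auto.D36 5.13% of all probe sets were higher and 4.13% lower. Of the 15 other genes with the tract 4 were lower and 0 higher there: EEF2 (-0.62), EIF4A2 (-0.29), EIF3H (-0.24) and NPM1 (-0.19). There 14 of 19 cell cycle genes were higher, with a median of 1.20, and 3 of 9 naive and central memory genes were lower. In Siro.F 16 of 19 cell cycle genes were higher (4.24% of all probe sets), with a median of 1.09. Beside them 3 ribosomal protein genes were lower (4.66%). Against NoRx.F EIF4A2 was higher in Siro.F by 0.54 and in KY1005.Siro.D14 by 0.72, and VIM was lower by -0.83 and -0.95.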

How the data were processed

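RNA of sorted CD3 T cells was hybridised to Affymetrix rhesus arrays, 1 RNA sample per array. The authors deposited log2 values after RMA, per the submitters' processing notes, which name RMA and affy. In healthy animals 0.274% of probe sets differed between batches at p under 0.05, fewer than chance gives, so a batch adjustment before deposit is possible but not stated in the sources used here. Such an adjustment would make the errors given too small. The annotation names 1 gene for 24969 of 52865 probe sets, several for 361 and none for 27535. All 40 symbols matched RefSeq.

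The 2 healthy arrays of R.201 were averaged, giving 101. Probe sets that reached 5.21 (the median over the whole table) on 3 or more arrays were tested, with 99 control probe sets left out. Group and batch were fitted over all 16 groups with limma 3.58.1 (R 4.3.3; 80 residual degrees of freedom) with Benjamini-Hochberg adjustment. The fit was tested on simulated data. The number of arrays limits precision. P-values rest on the spread between arrays within groups, pooled over all 16 groups. A small group thus takes most of its spread from the other groups. The main fit treats repeated samples of an animal as independent. Animals pair samples by their label; their consensus correlation was 0.11. The genes named in each comparison are the 3 largest rises and falls past the threshold, a fixed set of paralogs, stalk proteins and RPS6, and up to 4 genes of each list, and RPS21, RPL30, RPL12 and others beyond these were chosen after their values were seen. The genes, lists and comparisons were chosen with earlier results of these data known. Alternatives were no batch term, an animal block, quantile normalization, median centring, no or a stricter filter, averaged probe sets, batches of the group alone, arrays left out, and, added later, actin ratio and markers of myeloid and of erythroid and platelet cells as covariates.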

Additional observations from a re-analysis of the deposited data

Results flagged for a closer look

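The 3 comparisons with NoRx.F tested the difference between transplanted groups directly, and genes passed the threshold in all 3. In Siro.F 5 were higher (3.08% of all probe sets), in KY1005.F 5 (4.67%) and in KY1005.Siro.D14 13 (7.38%). The 13 include RPS15, whose probe sets disagree. None of the 5 Siro.F calls held within batches, and the KY1005 groups share no batch with NoRx.F.

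Single animals stood apart from the others of their group in 15 of 240 checks (Dixon's criterion at 95%, 29 genes and the 39-gene mean in 8 groups), and chance gives about 1 in 20. R.13 of Siro.F was high for RPL10A (13.89), RPL7 (13.51) and RPS16 (7.96). R.221 was low for RPL19 (9.28) and RPS6 (13.97) in KY1005.Siro.D14 and for RPS21 (13.89) in KY1005.Siro.D28. R.202 was low for RPLP1 in Auto.D36 (13.76) and Auto.D100 (13.84). R.219 was low for RPL36AL (12.47) and RPL7 (13.37) in KY1005.Siro.F, where R.220 was high for RPS9 (12.20). In NoRx.F, R.50 was high for RPL26L1 (10.35) and RPS9 (12.06) and R.51 low for RPL19 (9.63). R.67 of Bela.Siro.F was low for RPL22L1 (12.42).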

How the results depend on the processing

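Of 83 called differences of single genes, 4 changed sign with averaged probe sets: RPS15 in NoRx.F (0.51) and, against NoRx.F, RPS15 (-0.41) and RPL9 (-0.036) in KY1005.Siro.D14 and RPL30 (-0.048) in Siro.F. None changed sign under the other alternatives run. The count of genes called moved by more than 1.5 times as follows. Without the batch term it was 1 in Tac.Mtx.D14, 4 in Tac.Mtx.F, 0 in Bela.Siro.D14, 2 in KY1005.D14, 5 in KY1005.F, 6 in KY1005.Siro.D28, 2 in KY1005.Siro.F, 15 in Auto.D36 and 6 in Auto.D100, and against NoRx.F 9 in Siro.F and 14 in KY1005.F. Quantile normalization gave 7 in Bela.Siro.F, 1 in KY1005.D14, 5 in KY1005.F, 2 in KY1005.Siro.F and, against NoRx.F, 8 in KY1005.Siro.D14. Median centring and no filter each gave 0 in Bela.Siro.D14 and 1 in KY1005.F. The stricter filter gave 13 in Auto.D36 and 8 in Siro.F against NoRx.F. Averaged probe sets gave 1 in KY1005.F and 13 in Auto.D36. Without the 6 arrays of high actin ratio it was 7 in Bela.Siro.F, 0 in KY1005.F, 1 in KY1005.Siro.D28 and 0 in Auto.D14. The actin covariate gave 1 in Tac.Mtx.D14, 0 in KY1005.F, 1 in KY1005.Siro.D28, 3 in Auto.D14 and 5 in Auto.D36. The monocyte and granulocyte covariate gave 0 in Bela.Siro.D14, 1 in Bela.Siro.F and 1 in KY1005.F, and the erythroid and platelet covariate 1 in KY1005.F. Within batches it was 13 in NoRx.F, 0 in Bela.Siro.D14, 0 in KY1005.F, 1 in KY1005.Siro.D14, 1 in KY1005.Siro.D28, 4 in Auto.D36, 0 in Auto.D100 and 1 in Siro.F against NoRx.F. The cause was not tested.

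Leaving out each array in turn gave 0 to 2 in Auto.D100, 0 to 8 in Auto.D14, 3 to 9 in Auto.D36, 0 to 1 in Bela.Siro.D14, 2 to 5 in Bela.Siro.F, 0 to 1 in KY1005.F, 1 to 3 in KY1005.Siro.D14, 0 to 2 in KY1005.Siro.D28, 2 to 5 in Siro.F, 0 to 2 in Tac.Mtx.F, and, against NoRx.F, 3 to 7 in KY1005.F, 7 to 12 in KY1005.Siro.D14 and 2 to 7 in Siro.F. Where 1 array was left, it was assumed to vary like the other groups. The animal as a random block changed 0 of the 83 calls and gave 23 in NoRx.F. As a fixed block between days 28 and 14 of KY1005.Siro it called 0.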
